A study of Mus musculus with 18 samples.

Results

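The comparison described here is that of mouse eosinophils stimulated with E. coli against unstimulated eosinophils, across all genes. Its members are the 3 libraries labelled as treated with E. coli and the 3 libraries labelled unstimulated a to c, which were chosen by these labels and make up 6 of the 18 libraries of the series. The other libraries of the series hold eosinophils given IFN-γ, IFN-γ with E. coli or IL-4, and further unstimulated cells. RNA was measured by CEL-Seq2, a method that counts the 3′ ends of transcripts.

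Cells of both groups were eosinophils washed from the peritoneal cavity of C57BL/6 mice of the NJ.1638 line, which carry an Il5 transgene. Other cells were removed with beads against Thy1.2 and B220, markers of T cells and B cells. The E. coli group received heat-inactivated bacteria and the unstimulated group none, and the study's methods give an incubation of 18 h in DMEM with 10% fetal calf serum. The transgene supplies IL-5, the growth factor of eosinophils, and the unstimulated cells carry it too, so both groups came from animals with an excess of eosinophils. The ages of the mice are not given in the sources used here. The paper speaks of biological replicates, but neither it nor the labels say that they came from separate animals or cultures, so p-values measure only the spread between these libraries. Another group from the same set of libraries, 3 libraries stimulated with IFN-γ, is used at the end for a direct comparison. Counts on genes were 2419241, 1562034 and 2211861 in unstimulated libraries a, b and c, and 2318235, 2734041 and 1980073 in E. coli libraries 1, 2 and 3. The totals of the groups overlapped. Levels below are CPM, counts scaled to a common library size, after TMM normalization, in the order a, b and c for unstimulated cells and 1, 2 and 3 for E. coli, and n = 3 per group.

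The libraries carried the markers of eosinophils. Ccr3, the eotaxin receptor, stood at 1228, 1705 and 1359 CPM in unstimulated cells and at 1367, 1196 and 1367 CPM with E. coli. Siglecf, the lectin used to sort mouse eosinophils, stood at 952, 1167 and 942 CPM and 659, 622 and 626 CPM. Both genes were thus high in each of the 6 libraries. Of 12 eosinophil markers 8 passed the filter on low counts, with 2 called higher and 2 lower, and none of the 12 was at 0 throughout. Summed over the list the level was 5362, 6460.2 and 5619 CPM in unstimulated cells and 5219.5, 4785 and 5048 CPM with E. coli, on the scale of total gene counts, and Alox15, a lipoxygenase, had the highest count. The sums were lower with E. coli and did not overlap. Epx and several other granule genes did not pass the filter on low counts.

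Markers of other cell types were also present, and those of B cells moved with the stimulus. Counts of called markers are to be read beside all genes tested, of which 13.5% were higher and 16.7% lower. All 7 B cell markers that were tested, of 10, were lower with E. coli, and none of the 10 was at 0. Their summed level was 367, 342 and 218 CPM in unstimulated cells and 65.6, 80.1 and 130.3 CPM with E. coli, and Ighm, the heavy chain of IgM, had the highest count. The groups did not overlap. In a bulk sample fewer cells of a type and less RNA per cell cannot be told apart.

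Peritoneal macrophage markers were lower with E. coli for 5 of 13 tested members of 15, and none was higher. With 1 library left out 3 were lower without unstimulated library a or E. coli library 1 or 2, and 8 without E. coli library 3. With no filter on low counts 8 were lower and 1 was higher. Their summed level was 1689.8, 1444 and 1676 CPM in unstimulated cells and 1156, 1048 and 1507 CPM with E. coli, with the highest count for Csf1r, the M-CSF receptor, and no marker at 0. E. coli library 3 stood above the other 2 E. coli libraries in this sum. C1qc, a complement subunit made by macrophages, showed the same order at 128, 115 and 244 CPM with E. coli, against 263, 188 and 239.9 CPM in unstimulated cells. It was not called (-0.53), but was called lower without E. coli library 3 (-0.93) or unstimulated library b (-0.63) or with no filter on low counts (-0.49). Several inflammatory genes described below, Il1b and Cd14 among them, were also highest in E. coli library 3. What the macrophage markers contribute to those values was not tested. Values without this library are given for the genes said to be highest in it and for some others whose rise was smaller without it.

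**Figure D1:**
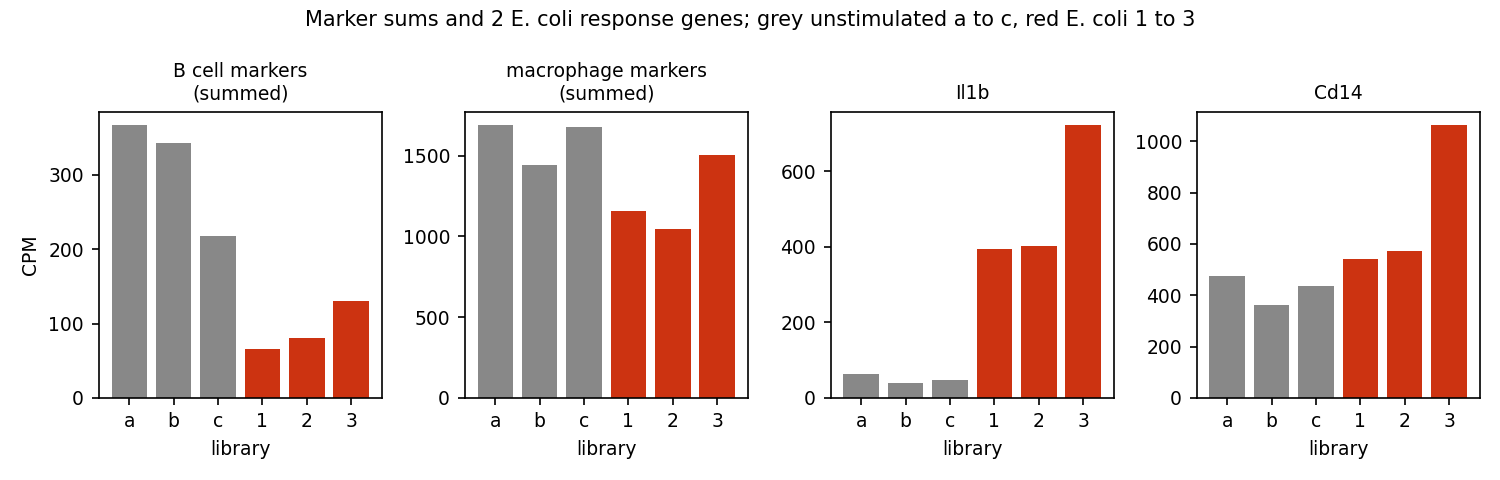
Each bar is a library, grey for unstimulated a to c and red for E. coli 1 to 3, and its height is the level in CPM, summed over the marker list in the left panels (on total gene counts) and after TMM normalization for Il1b and Cd14. B cell markers are lower in each E. coli library than in each unstimulated library, and E. coli library 3 is the highest of its group in all 4 panels.

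Of the remaining lists, 3 of 6 tested neutrophil markers were higher and 1 was lower. Their sum was 682, 736 and 656 CPM in unstimulated cells and 516, 512 and 548 CPM with E. coli, with the highest count for Retnlg and no marker at 0. Cxcr2 and S100a8, which are on this list, appear again below. Among platelet markers 1 of 3 tested, Ppbp, was higher, Gp1bb and Gp9 were at 0, and the sum was 639, 379.6 and 425 CPM and 458, 462 and 625 CPM, with the highest count for Pf4. No tested marker was called for T cells, plasma cells, dendritic cells, mast cells and basophils or erythroid cells, in the fit used throughout. The plasma cell sum was 19.0, 13.4 and 15.4 CPM in unstimulated cells and 4.7, 6.9 and 10.1 CPM with E. coli, without overlap. Sums of the other lists just named overlapped between groups. In refits 1 plasma cell marker was lower (without unstimulated library c, and after the correction for the ceiling described below) and 1 erythroid marker was higher (without E. coli library 1, with no filter, and with only the 6 libraries fitted). None of the markers of NK, mesothelial and fibroblast cells passed the filter on low counts. The part of these markers in the results below was not tested.

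Lipopolysaccharide of the bacterial outer membrane binds CD14 and the TLR4 and MD-2 pair on the cell surface. The adaptors MyD88 and TRIF then lead to the transcription factors NF-κB, AP-1 and IRF, which turn on cytokine genes and also the genes of their own inhibitors. Eosinophils are known for granule proteins and type 2 cytokines, and they carry receptors for bacterial products.

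The response to E. coli ran in both directions. Rises took in genes of cytokines, chemokines, glucose uptake and the response to low oxygen, and many genes of other kinds. Falls took in interferon-stimulated genes, the GTPases that IFN-γ induces, lysosomal enzymes and integrins. Of 9883 genes tested 2986 were called at an adjusted p under 0.05 (30.2%), 1337 higher (13.5%) and 1649 lower (16.7%). With a change of at least a factor of 2, 350 of all genes tested were called higher (3.54%) and 673 called lower (6.81%). The 3 libraries of each group did not overlap in 1310 genes called higher (13.3%), in 1565 called lower (15.8%) and in 4473 of all genes tested (45.3%). All these shares are of the 9883 genes tested. Without E. coli library 3 the counts were 1183 higher and 1512 lower. The median log2 fold change over all genes was -0.02. On a principal component analysis of the 6 libraries the first component, with 66.1% of the variance, separated both groups.

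**Figure D2:**
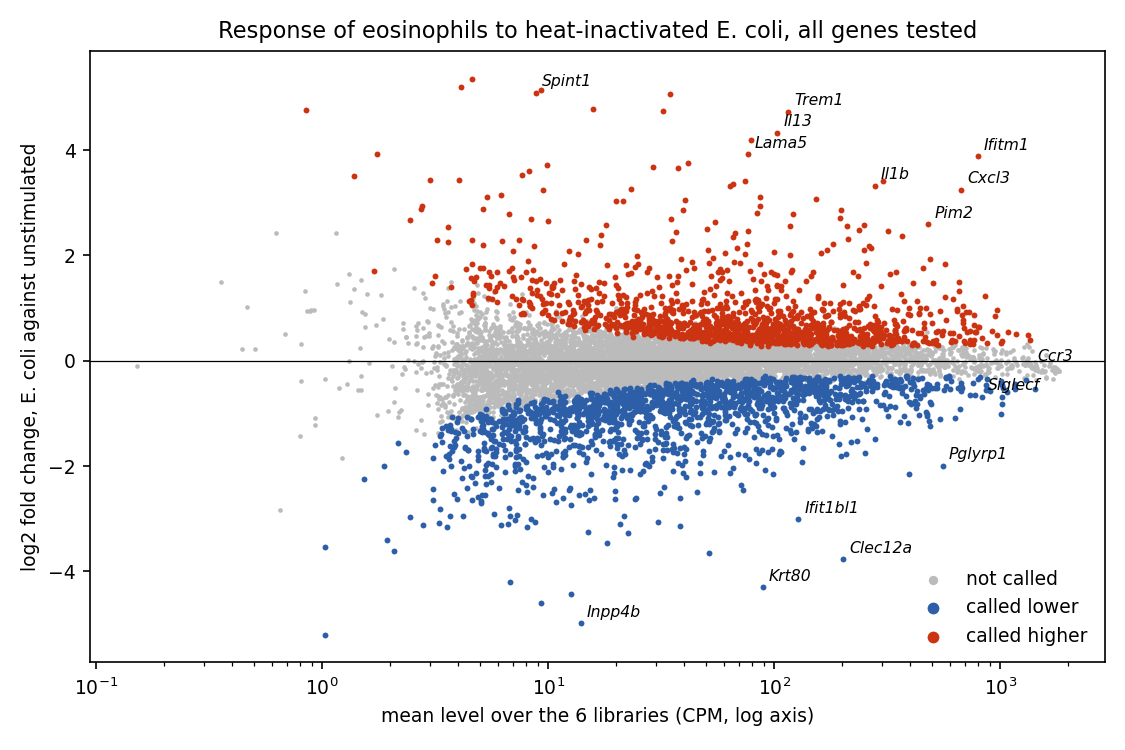
Each point is 1 of the 9883 genes tested, placed by its mean level over the 6 libraries (CPM, log axis) and its log2 fold change with E. coli, in red if called higher, blue if called lower and grey if not called. The rises reach further than the falls among abundant genes such as Ifitm1 and Cxcl3, and points at the right end draw close to 0.

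Counts had a ceiling. The highest gene count of the 6 libraries lay between 4089 and 4094 in each library, just under the 4096 sequences that a molecular identifier of 6 bases can take. Changes of genes near it are compressed. An alternative fit raised each count to the number of molecules that would leave that many identifiers used if identifiers were drawn at random, and it is called the correction for the ceiling below. Of 218 tested genes with a count above 2048 in some library of the 6, 76 were called. For these genes fold changes are best read as too small, and the CPM of a gene at the ceiling follows the library total and not its RNA.

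The 12 leading rises came from several kinds of genes. Trem1, a receptor that amplifies the signals of Toll-like receptors (ENSMUSG00000042265, chr17:48232768-48246924, plus strand of GRCm38), stood at 7.08, 10.1 and 8.26 CPM in unstimulated cells and at 215, 228 and 219 CPM with E. coli. The groups lay far apart and the E. coli libraries were close to each other, with a log2 fold change of 4.73 ± 0.15 (SE) and adjusted p = 2.47e-13 (edgeR, quasi-likelihood, with p-values adjusted after Benjamini and Hochberg over all genes tested). Il13, a type 2 cytokine, rose from 3.73, 12.7 and 14.04 CPM to 184, 209 and 196 CPM. Unstimulated library a was the lowest, all E. coli libraries were higher than all others, and the log2 fold change was 4.33 ± 0.23 (adjusted p = 1.25e-10). Il19, a cytokine of the IL-10 family, had 1.86, 1.90 and 2.89 CPM in unstimulated cells and 45.3, 48.8 and 93.3 CPM with E. coli. Library 3 was the highest, and the log2 fold change of 4.74 ± 0.39 became 4.36 without it. Cxcl5, a chemokine that draws neutrophils, went from 5.59, 6.97 and 4.54 CPM to 56.3, 59.2 and 116 CPM, again highest in library 3. Its log2 fold change was 3.76 ± 0.32, and 3.37 without library 3.

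Several genes outside immune signalling rose as steeply. Peg10, an imprinted gene derived from a retrotransposon, stood at 3.35, 1.27 and 0.826 CPM in unstimulated cells and 65.7, 69.5 and 66.2 CPM with E. coli. Dgat2, which catalyses the last step of triglyceride synthesis, stood at 0.745, 1.27 and 1.24 CPM and 31.00, 29.1 and 31.6 CPM. Lama5, a laminin chain of basement membranes, stood at 7.82, 9.51 and 11.2 CPM and 152, 151 and 128 CPM. In these 3 genes the E. coli libraries were close to each other and lay apart from unstimulated cells, at log2 fold changes of 5.07 (5.98 without unstimulated library a), 4.78 and 3.92. Tiam1, an exchange factor that activates Rac, had 3.35, 3.80 and 5.37 CPM against 55.5, 51.5 and 55.8 CPM, and Maff, a small Maf transcription factor, 1.12, 1.27 and 1.65 CPM against 19.6, 17.4 and 18.3 CPM. Neither gene had overlapping groups, and the log2 fold changes were 3.67 and 3.71. Spint1, a membrane-bound inhibitor of serine proteases, had 0.745, 0 and 0.413 CPM in unstimulated cells and 18.4, 16.7 and 16.8 CPM with E. coli. The unstimulated libraries held 3 counts in all, so the ratio of 38.5 has a counting interval of 12.9 to 189 at 95% confidence. Its log2 fold change of 5.09 was 5.79 without unstimulated library a.

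Ifitm1, an antiviral membrane protein of the interferon-induced transmembrane family, was the rise with the largest gain in level before the correction for the ceiling. It stood at 81.97, 124 and 99.5 CPM in unstimulated cells and at 1506, 1302 and 1644 CPM with E. coli. The groups did not overlap, and the log2 fold change was 3.88 ± 0.17, or 5.18 after the correction for the ceiling. It shares a transcript end of 97.5% identity with the predicted gene Gm7676, so reads of these genes could be confused. U90926, a transcript of unclear function, had 6.71, 12.04 and 6.61 CPM and 105, 118 and 224 CPM and was highest in library 3. Its log2 fold change was 4.19, and 3.79 without that library. Among the leading rises 1 predicted gene and among the leading falls 3 were passed over in naming.

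**Figure D3:**
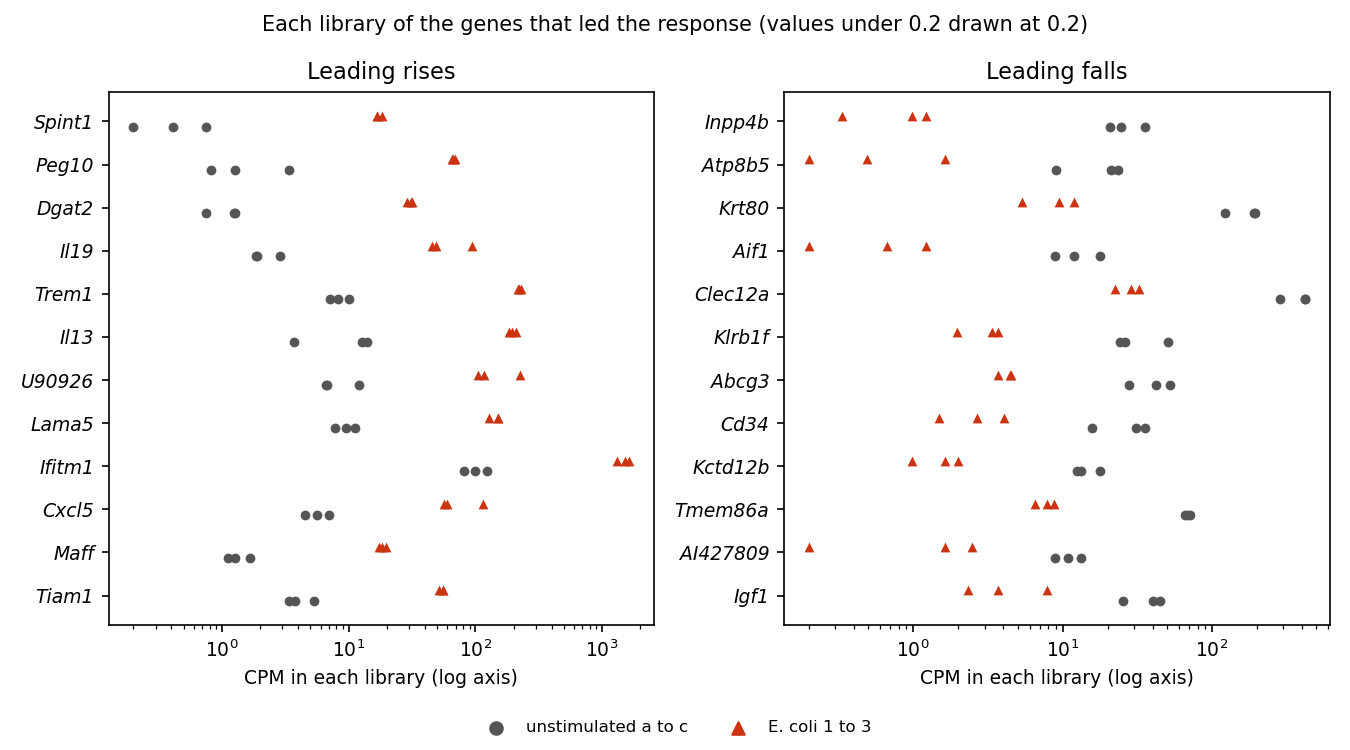
Each point is the level of a gene in 1 library (CPM, log axis), circles for unstimulated a to c and triangles for E. coli 1 to 3, for the 12 leading rises (left) and the 12 leading falls (right). In every gene the circles and triangles lie apart, which the choice of these genes required. Il19, U90926 and Cxcl5 have a single triangle to the right of the other 2.

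The 12 leading falls included surface receptors and signalling genes. Clec12a, an inhibitory lectin receptor of myeloid cells (ENSMUSG00000053063, chr6:129342691-129365303, plus strand), stood at 418, 416 and 287 CPM in unstimulated cells and at 28.6, 22.4 and 32.6 CPM with E. coli. All E. coli libraries were lower, and the log2 fold change was -3.76 ± 0.19 (adjusted p = 8.39e-11). Krt80, a keratin, had 191, 193 and 122 CPM and 9.38, 5.35 and 11.8 CPM, a log2 fold change of -4.29 ± 0.25. Its exons overlap an antisense gene, and whether counting used strand is not stated. Tmem86a, an enzyme that cleaves lysoplasmalogens, fell from 65.6, 70.98 and 69.4 CPM to 6.53, 8.69 and 7.90 CPM. These values were tight in both groups, with a log2 fold change of -3.13 ± 0.18. Cd34, a sialomucin of progenitors that mouse eosinophils also carry, stood at 35.4, 31.1 and 15.7 CPM and 4.08, 2.67 and 1.48 CPM. Unstimulated library c was the lowest of its group but above all E. coli libraries, and the log2 fold change was -3.25 ± 0.37.

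Inpp4b, a phosphatase that removes a phosphate from a phosphoinositide, had 35.8, 24.7 and 20.6 CPM in unstimulated cells and 1.22, 0.334 and 0.987 CPM with E. coli, the steepest of these 12 falls at -4.98 ± 0.42. Atp8b5, a lipid flippase, had 23.5, 20.9 and 9.09 CPM and 1.63, 0 and 0.494 CPM. Aif1, an actin-binding protein of myeloid cells, had 17.9, 8.87 and 11.98 CPM and 1.22, 0.669 and 0 CPM. The E. coli libraries held few counts of these 3 genes, and their groups lay apart. Atp8b5 fell at -4.60 ± 0.63, with -6.07 and -3.91 without E. coli library 1 and 2, and Aif1 at -4.19 ± 0.54, with -4.85 without E. coli library 1. Igf1, a growth factor that macrophages also make, stood at 45.1, 25.4 and 40.5 CPM and 3.67, 2.34 and 7.90 CPM, at a log2 fold change of -3.10 ± 0.34. Klrb1f, a lectin-like receptor, had 50.7, 24.1 and 26.02 CPM and 3.67, 3.34 and 1.98 CPM. Abcg3, a transporter of the ABC family, had 52.5, 41.8 and 27.7 CPM and 4.49, 3.68 and 4.44 CPM. In both genes the unstimulated libraries spread more widely than the E. coli libraries, without overlap. Kctd12b, a potassium channel tetramerization domain gene, had 17.9, 13.3 and 12.4 CPM and 1.63, 2.01 and 0.987 CPM. AI427809, a long noncoding RNA, had 10.8, 8.87 and 13.2 CPM and 1.63, 0 and 2.47 CPM. Their log2 fold changes were -3.15, or -2.52 after thinning all libraries to the smallest total, and -3.12, the latter -2.42 and -3.79 without E. coli library 2 and 3.

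The largest gains in level, ranked before the correction for the ceiling, came from genes of several kinds. After Ifitm1 came Cxcl3, a chemokine for neutrophils, with 124, 106 and 152 CPM in unstimulated cells and 1161, 1114 and 1380 CPM with E. coli. Pim2, a kinase that supports survival, rose from 127, 143 and 142 CPM to 853, 789.8 and 832 CPM. The E. coli libraries were tight in Pim2, and its log2 fold change was 2.59 ± 0.10. Pseudogenes with 95.5% identity to its transcript end exist. Thbs1, the adhesive glycoprotein thrombospondin-1, went from 234, 215 and 299 CPM to 819.9, 808 and 1053 CPM, and the cell cycle inhibitor Cdkn1a from 369, 278 and 376 CPM to 961, 876 and 1069 CPM. Car4, a carbonic anhydrase, stood at 596, 771 and 599 CPM and 1316, 1150.2 and 1361 CPM, and Cd9, a tetraspanin, at 359.6, 544 and 635 CPM and 1247, 1099.7 and 1254 CPM. None of these genes had overlapping groups. Each of these genes passed 2048 counts in some library, and the correction for the ceiling raised the log2 fold changes of Cxcl3, Cd9 and Car4 from 3.25, 1.23 and 0.96 to 4.04, 1.82 and 1.60. Exons of Cd9, Thbs1 and Cdkn1a overlap antisense genes.

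Losses in level, also ranked before that correction, were led by Rgs2, a regulator of G protein signalling. It had 1284, 1519.8 and 1213 CPM in unstimulated cells and 704, 603 and 694 CPM with E. coli. Pglyrp1, a protein that binds bacterial peptidoglycan, fell from 936, 1044 and 681 CPM to 234, 186 and 249.8 CPM. Smpdl3a, a phosphodiesterase of the lysosome, fell from 607, 707 and 614 CPM to 146, 139 and 152 CPM. Smpdl3a was tight in both groups and had a log2 fold change of -2.14 ± 0.12, against -1.99 ± 0.15 for Pglyrp1. Grn, the precursor of granulins, Gpx1, a glutathione peroxidase, Man2b1, a lysosomal mannosidase, S100a10, a calcium-binding partner of annexin, and Lst1, a leukocyte gene of the MHC region, were the others, with log2 fold changes of -0.82, -0.53, -0.69, -1.10 and -0.59. Unstimulated library b, the smallest of the 6, was highest in each of these 5 genes. Gpx1 was not called without it (-0.28) or without E. coli library 2 (-0.45), and Lst1 moved to -0.38 without it. The correction for the ceiling gave -1.03 for Gpx1.

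**Figure D4:**
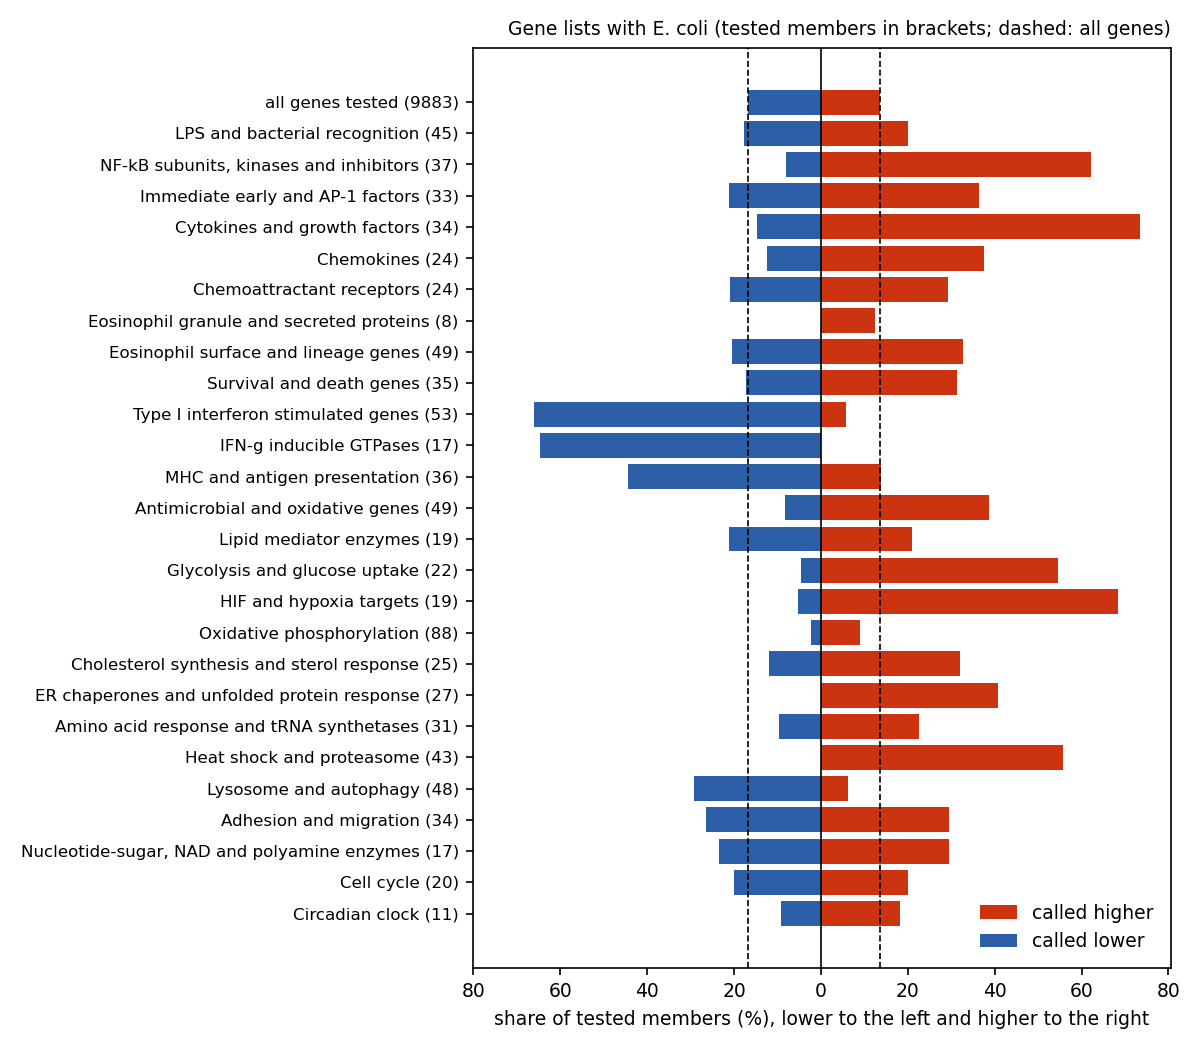
Each row is a gene list with its number of tested members, and the bars give the share of these called higher (right, red) and lower (left, blue), in percent, with dashed lines at the shares over all genes tested. Cytokines, NF-κB and hypoxia lists lean to the right, and interferon-stimulated genes and IFN-γ inducible GTPases lean to the left.

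Genes that sense bacteria or pass on the signal were called lower about as often as all genes, and higher somewhat more often. Of 45 tested receptors, co-receptors, adaptors and kinases 9 were higher and 8 were lower, against 13.5% and 16.7% of all genes. Their median log2 fold change was -0.05. Counts for the lists that follow are to be read beside the same shares of all genes. Tlr4, the signalling receptor for lipopolysaccharide, stood at 23.5, 22.2 and 28.1 CPM in unstimulated cells and 41.2, 39.1 and 44.9 CPM with E. coli. The groups did not overlap, and the log2 fold change was 0.75 ± 0.16 (adjusted p = 0.00140). Cd14, its co-receptor, stood at 475, 361 and 435 CPM and 543, 573 and 1063 CPM. Library 3 was far above the rest, and the log2 fold change of 0.77 was 0.40 and not called without it. Cd180, a relative of TLR4 that restrains it, fell from 127, 117 and 114 CPM to 24.1, 26.4 and 18.8 CPM. It was low in all E. coli libraries, at -2.35 ± 0.18. Ly86, the partner of Cd180, was also called lower (-1.69), as was the scavenger receptor Marco (-1.72), which is among the macrophage markers. Irak3, a brake on Toll-like receptor signals, was called higher (2.48). Ly96, Tlr2 and Myd88 were not called, with log2 fold changes of -0.28, -0.32 and 0.28. Myd88 was called higher without unstimulated library b (0.34) or E. coli library 2 (0.35), and also with DESeq2 size factors, with only the 6 libraries fitted, after thinning and after the correction for the ceiling, at 0.29, 0.30, 0.32 and 0.29. Exons of Cd180, Irak3 and Myd88 overlap antisense genes.

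Many genes on the NF-κB list rose. Of 37 tested members 23 were higher and 3 lower, with a median log2 fold change of 0.53. Among 7 inhibitors and co-factors 5 were higher, and among 22 feedback inhibitors 14 were higher and 3 lower. These feedback inhibitors, and the counts, include genes that act on other signals, such as SOCS genes on cytokine signals and DUSP genes on MAP kinases. Nfkbiz, a nuclear co-factor needed for secondary response genes, stood at 22.7, 17.1 and 23.5 CPM in unstimulated cells and 117, 115 and 97.8 CPM with E. coli. The groups were far apart, at 2.35 ± 0.15. Nfkbia, the main cytoplasmic inhibitor, rose from 309, 271 and 330.4 CPM to 529.9, 527 and 657 CPM, and Tnfaip3, a deubiquitinase that ends the signal, from 45.1, 50.1 and 61.9 CPM to 119.9, 106 and 125 CPM. Bcl3 and Socs3, a co-factor and a cytokine signal inhibitor, rose by 2.03 and 2.00 on the log2 scale, and by 1.97 and 1.66 without E. coli library 3. Of 5 subunits 3 were called higher, Nfkb2, Rel and Relb, at 0.94, 0.48 and 0.47. Relb was not called without unstimulated library a (0.45) or E. coli library 1 (0.39), which left 1 subunit higher, and Rel not without unstimulated library a (0.46) or b (0.34) or E. coli library 1 (0.50) or 2 (0.37). Nfkb1 and Rela were not called, with log2 fold changes of -0.20 and 0.08. Dusp1, a phosphatase of MAP kinases, was lower, at 171, 179 and 191 CPM and 65.3, 47.1 and 82.5 CPM. Socs1, the list's gene with the highest count, stood at 450.5, 574 and 503 CPM and 862, 843 and 892 CPM.

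Some immediate early genes were called in each direction. Of 33 tested members 12 were higher and 7 lower, against 13.5% and 16.7% of all genes, with a median of 0.08. Fos, an AP-1 subunit, stood at 96.5, 73.5 and 101 CPM and 30.6, 19.1 and 29.1 CPM. Jun, its partner, stood at 76.01, 64.6 and 78.9 CPM and 35.1, 21.7 and 45.9 CPM. Neither gene had overlapping groups, and their log2 fold changes were -1.81 ± 0.18 and -1.14 ± 0.23. Jun has an antisense gene over its exons. Egr1, a zinc finger factor, was also called lower, at -1.67, while its relative Egr2, the early gene Ier3 and the AP-1 subunit Fosl2 were called higher, at 2.46, 1.85 and 0.56. Without E. coli library 3 Ier3 was at 1.45. Atf3, a stress factor, was called higher at 0.85, but not without unstimulated library a (0.71) or E. coli library 3 (0.48). Fosl1, an AP-1 subunit, rose by 2.68 on the log2 scale, or 3.33 without unstimulated library c, and its exons overlap an antisense gene. Cebpb, a factor of myeloid genes and the list's highest count, stood at 848, 1087 and 954 CPM and 1380, 1217 and 1523 CPM, at 0.51 ± 0.13, or 1.10 after the correction for the ceiling.

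Cytokine genes had the most rises for their size among the 26 gene lists, which leave out the cell type markers. Of 34 tested members 25 were higher and 5 lower, with a median log2 fold change of 1.61 against -0.02 over all genes. Il1b, the fever cytokine, stood at 62.6, 39.3 and 47.1 CPM in unstimulated cells and 396, 403 and 723 CPM with E. coli. Library 3 was highest, and the log2 fold change of 3.32 ± 0.22 was 2.99 without it. Il6 rose from 16.4, 18.4 and 24.8 CPM to 121, 141 and 198 CPM, and Tnf, the gene of tumour necrosis factor, from 16.4, 15.8 and 12.8 CPM to 77.1, 73.2 and 108 CPM. Both groups lay apart in Il6 and in Tnf, at 2.94 ± 0.20 and 2.51 ± 0.20. Il6 and Tnf were also highest in library 3, and without it were at 2.72 and 2.33. Il4, a type 2 cytokine, stood at 111, 117 and 97.5 CPM and 164, 156 and 145 CPM. The E. coli libraries were all above the unstimulated ones, at 0.53 ± 0.12 (adjusted p = 0.00244). Il5, also of type 2, was called higher (0.72), but transcripts of the transgene may be counted as Il5, which was not tested. Also called higher was Osm, a cytokine of the IL-6 family (0.73). Csf3, the granulocyte growth factor G-CSF, had 5.22, 3.80 and 6.61 CPM and 44.1, 52.5 and 114 CPM, highest in library 3, at 3.67 or, without that library, 3.17. Fst, an inhibitor of activin, had 0.373, 0 and 0 CPM and 3.67, 5.68 and 17.8 CPM. The unstimulated libraries held 1 count of Fst in all, so its ratio of 55.5 has an interval of 9.60 to 2226, and E. coli library 3 was the highest. The log2 fold change of Fst, 5.36, was 7.08 without unstimulated library a and 4.51 without E. coli library 3. Inhba, the activin subunit itself, rose by 3.32, or 3.01 without E. coli library 3. Il1rn, the IL-1 receptor antagonist and the gene with the list's highest count, was not called (0.31). It was called higher without unstimulated library b (0.41) or E. coli library 2 (0.43), with no filter on low counts (0.35) and after the correction for the ceiling (0.86).

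Chemokines rose in 9 of 24 tested members and fell in 3, with a median of 0.04. Cxcl2, which binds CXCR2, stood at 233, 155 and 218 CPM in unstimulated cells and 655, 668 and 992 CPM with E. coli. The groups did not overlap, at 1.92 ± 0.17, or 1.71 without E. coli library 3, which was the highest. Ccl3, Ccl4 and Cxcl1 were called higher at 3.41, 2.37 and 2.55, and were at 3.32, 1.95 and 2.21 without E. coli library 3. Ccl8, a chemokine for monocytes and eosinophils, had 4.10, 5.70 and 9.50 CPM and 1.63, 1.34 and 3.46 CPM. Its fall of -1.64 ± 0.48 (adjusted p = 0.0139) rests on few counts and was lost without unstimulated library c or without E. coli library 1 or 2, at -1.20, -1.50 and -1.35. Without E. coli library 3 the count of lower members was 5. Ccl6, the list's highest count, was at the ceiling and not called.

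Chemoattractant receptors were higher in 7 and lower in 5 of 24 tested members, against 13.5% and 16.7% of all genes, with a median of 0.14. Cxcr2, the receptor for the CXC chemokines above, stood at 30.2, 22.8 and 25.6 CPM in unstimulated cells and 97.5, 83.9 and 83.9 CPM with E. coli. All E. coli libraries were higher, at 1.73 ± 0.18. Ccr7, the receptor that guides cells to lymph nodes, had 10.4, 17.1 and 14.5 CPM and 2.45, 3.68 and 7.90 CPM, lower at -1.60 ± 0.37. Ccr3, Ccr1 and Fpr2 were not called, with log2 fold changes of -0.13, 0.13 and -0.26, but Fpr2 was called lower without E. coli library 3 (-0.60).

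Genes that define eosinophils changed in part. Of 8 tested granule and secreted proteins 1 was higher, with a median of -0.09. This was Ear6, a ribonuclease, at 29.8, 46.3 and 33.9 CPM in unstimulated cells and 81.6, 94.6 and 86.4 CPM with E. coli. Prg2, the major basic protein, was not called, at 26.8, 32.3 and 29.3 CPM and 24.9, 24.1 and 28.6 CPM. Retnla had the highest count of the list and was at the ceiling. No member was called lower, against 1 without unstimulated library a or E. coli library 3. Of 49 surface and lineage genes 16 were higher and 10 lower, with a median of 0.16. Il5ra, the IL-5 receptor, stood at 208, 154 and 176 CPM and 68.5, 69.9 and 73.6 CPM. All E. coli libraries were below all unstimulated ones, at -1.35 ± 0.14 (adjusted p = 7.58e-07). Siglecf was lower at -0.68 ± 0.12. Gata1, the lineage factor, rose from 219, 252 and 239.9 CPM to 385, 341 and 318 CPM without overlap, at 0.56 ± 0.10. Il13ra1, a receptor chain for IL-13, stood at 5.96, 5.70 and 7.43 CPM and 11.4, 16.05 and 19.3 CPM, and Il4ra was called higher too (1.10). Csf2rb, the shared beta chain of the IL-5, IL-3 and GM-CSF receptors, was near the ceiling, at 0.12, and 1.31 and called after the correction for it. It has a near copy, Csf2rb2. Cd24a, the list's highest count, was at the ceiling and not called.

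Survival and death genes were called lower about as often as all genes, and higher more often. Of 35 tested members of the list 11 were higher and 6 lower, against 13.5% and 16.7% of all genes, with a median of -0.01. Among 15 anti-apoptotic members 7 were higher and 1 lower, and among 20 pro-apoptotic members 4 were higher and 5 lower. Bcl2l1, the gene of the anti-apoptotic protein BCL-XL, stood at 64.8, 75.4 and 74.3 CPM in unstimulated cells and 204, 201 and 207 CPM with E. coli. The values were tight and apart, at 1.52 ± 0.13. Casp6, an executioner caspase, fell from 31.3, 34.2 and 26.02 CPM to 9.79, 7.69 and 11.8 CPM. Mcl1, another anti-apoptotic gene, was not called (-0.08). Serpinb2, a protease inhibitor and the list's highest count, was called higher at 0.49 (1.39 after the correction for the ceiling), but not without unstimulated library a (0.39) or E. coli library 3 (0.39). It overlaps Serpinb10 on the same strand. Lower members of the whole list numbered 3 without E. coli library 1 and 2 without E. coli library 2. Lower pro-apoptotic members numbered 3 without unstimulated library a or b, 2 without E. coli library 1 and 1 without E. coli library 2.

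Among the 26 gene lists, which leave out the cell type markers, interferon-stimulated genes had the most falls for their size. Of 53 tested members 35 were lower and 3 higher, with a median log2 fold change of -0.57. Ifit1bl1, an antiviral gene of the IFIT family, stood at 217, 202 and 259 CPM in unstimulated cells and 26.5, 19.7 and 39.99 CPM with E. coli. The groups lay far apart, at -3.01 ± 0.18. Stat2, a factor that carries the interferon signal, fell from 217, 205 and 209 CPM to 108, 109.7 and 109 CPM. The E. coli libraries of Stat2 differed by less than the unstimulated ones, at -0.95 ± 0.11. Irf7, the factor that amplifies the type I response, was lower at -0.44, but was not called without unstimulated library b or E. coli library 1 or 2, at -0.28, -0.43 and -0.36. The 3 rises were Ifitm1, Ifitm2 and Ifi27, at 3.88, 1.69 and 1.06. Ly6e had the highest count and was at the ceiling.

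GTPases that IFN-γ induces were lower in 11 of 17 tested members and higher in none, with a median of -0.76. The filter on low counts also drew on libraries given IFN-γ. Members scarce in both groups compared here, such as Gbp2b, could therefore be tested through those libraries. Ifi47 stood at 709, 775 and 717 CPM in unstimulated cells and 314, 309 and 408 CPM with E. coli. Irgm1, which acts on vacuoles of intracellular bacteria, fell from 195, 174 and 222 CPM to 141, 117 and 97.3 CPM. Both genes were without overlap, at -1.10 ± 0.13 and -0.74 ± 0.13. Lower members numbered 7 without unstimulated library c. Of 10 guanylate-binding protein genes on the list 6 were lower, or 3 with only the 6 libraries fitted. Gbp2b had 2.24, 0.634 and 3.30 CPM in unstimulated cells and no count in any E. coli library. Against a floor of 3 counts over the E. coli group it was at least 5.59-fold lower, and the median of the list is the same with Gbp2b at this bound.

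Antigen presentation genes were lower in 16 and higher in 5 of 36 tested members, with a median of -0.33. Without E. coli library 2 the count of lower members was 10. Class II members lower numbered 2 without unstimulated library a or b or E. coli library 1 or 2 or after thinning, and 3 with at least 10 counts in every library. All 10 called class I members and all 5 called class II members were lower, and the 5 rises were among 11 co-stimulation genes. Cd274, which encodes PD-L1, stood at 133, 127 and 203 CPM in unstimulated cells and 291, 311 and 356 CPM with E. coli. Pdcd1lg2, which encodes PD-L2, rose from 1.12, 1.27 and 1.24 CPM to 8.16, 12.4 and 12.8 CPM. These ligands of PD-1 were higher in all E. coli libraries, at 1.04 ± 0.15 and 3.15 ± 0.38, the latter 4.27 after thinning. Ciita, the master factor of class II genes, had 3.73, 4.44 and 2.48 CPM and 0, 0 and 0.987 CPM, where the E. coli libraries held 2 counts in all and the ratio was 12.8 with an interval of 3.18 to 112. Its log2 fold change of -3.41 was -2.77 and -5.82 without E. coli library 2 and 3. Ciita was scarce in both groups and, like Gbp2b, could be tested through libraries given IFN-γ. Exons of Ciita and Cd274 overlap antisense genes. Class II genes are also expressed by B cells, whose markers fell. Cd74, the invariant chain, stood at 96.5, 78.6 and 66.5 CPM and 35.9, 39.5 and 78.5 CPM. The groups overlapped through E. coli library 3, and its call (adjusted p = 0.0343) was lost without unstimulated library a or b or E. coli library 1 or 2, at -0.52, -0.68, -0.48 and -0.51. Without E. coli library 3 the fall was -1.09. H2-K1 and B2m were near the ceiling and not called, but H2-K1 was lower at -0.62 after the correction for it.

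Antimicrobial and oxidative genes were higher in 19 and lower in 4 of 49 tested members, with a median of 0.26. S100a8, a calprotectin subunit, stood at 6.33, 9.51 and 9.91 CPM in unstimulated cells and 53.8, 40.5 and 122 CPM with E. coli. Library 3 was highest, and the log2 fold change was 3.06 ± 0.42, or 2.48 without it. Nos2, the inducible nitric oxide synthase, rose from 30.6, 38.7 and 59.9 CPM to 103, 113 and 196 CPM, at 1.66 ± 0.25, or 1.33 without library 3. Lcn2, which captures bacterial siderophores, was called higher at 1.64, and was at 1.27 without library 3. Cybb, a subunit of the NADPH oxidase, was lower at -0.37, a call lost without unstimulated library b or c or E. coli library 1 or 2, at -0.25, -0.39, -0.37 and -0.29. The correction for the ceiling gave -0.63. Lower members of the list numbered 2 without unstimulated library b or without E. coli library 2. Hmox1, a heme oxygenase, was not called (0.04), and Saa3, the list's highest count, was at the ceiling.

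Of 19 lipid mediator enzymes 4 were higher and 4 lower, against 13.5% and 16.7% of all genes, with a median of -0.12. Ptgs2, the inducible prostaglandin synthase, stood at 39.1, 22.2 and 33.5 CPM in unstimulated cells and 218, 239 and 368 CPM with E. coli. All E. coli libraries were far above the others, at 3.08 ± 0.20, or 2.82 without library 3. Alox5 and Alox15, which make leukotrienes and other lipid mediators, were not called (-0.04 and -0.37). Alox15 was called lower without unstimulated library a (-0.46), with at least 10 counts in every library (-0.39) and after the correction for the ceiling (-0.63). The fall of Ggt5, at -0.92 ± 0.27, was lost without E. coli library 3 (-0.66). Pla2g7, the list's highest count, was at the ceiling and called higher, at 0.55, only after that correction.

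Many genes of glucose use and of the response to low oxygen rose. Of 22 glycolysis and uptake genes 12 were higher and 1 lower, with a median of 0.54, and of 19 targets of HIF, the transcription factor of low oxygen, 13 were higher and 1 lower, with a median of 0.98. Slc2a1, the glucose transporter GLUT1 and a member of both lists, stood at 57.4, 85.6 and 76.4 CPM in unstimulated cells and 184, 184 and 186 CPM with E. coli. Ankrd37, a target of HIF, rose from 2.24, 6.34 and 4.96 CPM to 32.6, 35.1 and 38.02 CPM. The E. coli libraries were tight in both genes and apart from unstimulated cells, at 1.35 ± 0.18 and 3.04 ± 0.24; exons of Ankrd37 and Slc2a1 overlap antisense genes. Hif1a itself rose from 479, 551 and 593 CPM to 893, 779 and 833 CPM, at 0.63 ± 0.13. Slc16a1, a lactate transporter, had 3 counts in unstimulated cells and a ratio of 11.9 with an interval of 3.80 to 60.3. Its log2 fold change of 3.43 was 4.22 without unstimulated library c. Pfkfb3, which makes an activator of glycolysis, was called higher at 0.75, but not without unstimulated library a (0.67). Hk2 was not called (0.27), but was called higher with only the 6 libraries fitted (0.30). Hk3 was lower at -0.62 with overlapping groups, and lost the call without unstimulated library a or c or E. coli library 1 or 2, at -0.57, -0.56, -0.46 and -0.46. Without E. coli library 3 Hk3 was at -0.95, and no glycolysis gene was called lower where Hk3 lost its call. Aldoa, a glycolytic enzyme with near copies and the list's highest count, was not called (0.19), but was at 0.69 and called after the correction for the ceiling. Ldha, which has several pseudogenes, was higher at 0.54, and Bnip3l, which has a pseudogene, was the fall among HIF targets, at -0.57.

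Few respiratory chain genes were called. Of 88 tested members 8 were higher and 2 lower, against 13.5% and 16.7% of all genes, with a median of 0.02. None of the 13 mitochondrial-encoded members was called, against 1 lower with no filter on low counts. Cycs, cytochrome c, stood at 194, 226 and 214 CPM in unstimulated cells and 328, 355 and 396 CPM with E. coli, at 0.77 ± 0.12. It has pseudogenes of up to 100% identity. The fall of Ndufs6, at -0.54, was lost when any of the 6 libraries but unstimulated library c was left out, at -0.56, -0.33, -0.54, -0.57 and -0.50. Higher members numbered 2, 14 and 5 without unstimulated library a, b and c. Lower members numbered 0 without unstimulated library a or b or E. coli library 1 or 2, 8 without unstimulated library c and 1 without E. coli library 3. The mitochondrial gene mt-Co1 was at the ceiling, with means of 1882 CPM in unstimulated cells and 1647 CPM with E. coli. Close to it stood mt-Atp6 (1868 and 1630 CPM) and mt-Co2 (1791 and 1582 CPM). Somewhat lower but also near the ceiling were mt-Nd1, mt-Nd2, mt-Nd4, mt-Co3 and mt-Cytb. A lack of calls among these genes does not show that their RNA was unchanged.

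Of 25 genes of cholesterol synthesis and the sterol response 8 were higher and 3 lower, with a median of 0.26. Abca1, which exports cholesterol, stood at 57.8, 41.8 and 99.9 CPM in unstimulated cells and 161, 152 and 165 CPM with E. coli. The groups did not overlap, at 1.23 ± 0.20. Ch25h, which makes 25-hydroxycholesterol, stood at 32.4, 21.5 and 39.6 CPM and 48.95, 57.5 and 124 CPM, highest in library 3, and at 1.24 or, without library 3, 0.75. Nr1h3, the sterol sensor LXR-alpha, was lower at -1.72 ± 0.37. Hmgcs1 was not called (0.10), nor was Apoe, whose level of 350.4, 368 and 825 CPM with E. coli was highest in library 3 and which was called lower without it (-0.60).

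Many chaperone and proteasome genes rose. Of 43 tested heat shock and proteasome genes 24 were higher, 18 of them among 31 proteasome subunits, with a median of 0.38. Hsp90ab1, a cytosolic chaperone, stood at 202, 222 and 245 CPM in unstimulated cells and 424, 446 and 454 CPM with E. coli. The groups did not overlap, at 0.98 ± 0.10. Hsp90aa1, its inducible relative with near copies and the list's highest count, rose by 0.89 on the log2 scale. Without unstimulated library a the count of higher members was 15, and 11 among proteasome subunits. The proteasome subunits counted with antigen presentation went the other way, with Psmb8, Psmb9 and Psmb10 called lower at -0.52, -1.34 and -0.76. The activator Psme1 was lower at -0.35, but not called without unstimulated library b (-0.22) or E. coli library 1 (-0.30) or 2 (-0.31). Of 27 endoplasmic reticulum chaperone and unfolded protein genes 11 were higher and none lower, with a median of 0.36. Hyou1, a chaperone of that compartment, rose by 0.98 and Hspa5 by 0.53 on the log2 scale. Xbp1, a factor of that response and the list's highest count, was not called (0.21), but was called higher without unstimulated library b (0.36). Of 31 amino acid response and tRNA synthetase genes 7 were higher and 3 lower, with a median of 0.12. Slc7a11, which imports cystine, stood at 80.9, 87.5 and 123 CPM and 495, 550.0 and 569.8 CPM. It rose without overlap, at 2.47 ± 0.14, while the glutamine transporter Slc1a5 was lower (-0.78) and Atf4 was not called (0.27). Atf4 was called higher without unstimulated library b (0.36), by DESeq2 (0.28) and after the correction for the ceiling (0.35). Slc3a2, the partner chain of Slc7a11 and the list's highest count, rose by 0.56, or 0.90 after the correction for the ceiling. Lower members numbered 1 without unstimulated library b or E. coli library 1 or 2.

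Lysosomal genes fell more often than they rose. Of 48 tested lysosome and autophagy genes 14 were lower and 3 higher, with a median of -0.14. Ctsa, a lysosomal carboxypeptidase, stood at 143, 114 and 126 CPM in unstimulated cells and 39.98, 43.1 and 65.7 CPM with E. coli. All E. coli libraries were lower, at -1.39 ± 0.17. Antisense genes overlap its exons. Npc1, which exports cholesterol from lysosomes, was higher at 0.52, and Tfeb and Lamp1 were not called (0.14 and -0.10). Man2b1, given above, was the list's highest count. Higher members numbered 1 without unstimulated library a or E. coli library 3 and 5 without unstimulated library b or c.

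Adhesion genes split by kind. Of 34 tested members 10 were higher and 9 lower, with a median of -0.09, where 8 of 13 proteases and their partners were higher and 8 of 21 integrins, selectins and related receptors were lower. Itga2, a collagen-binding integrin chain, stood at 73.03, 40.6 and 49.97 CPM in unstimulated cells and 8.57, 11.03 and 11.8 CPM with E. coli. Mmp13, a collagenase, rose from 15.6, 6.97 and 10.7 CPM to 77.1, 95.3 and 189 CPM. Itga2 was low in all E. coli libraries, at -2.40 ± 0.23, and Mmp13 was highest in library 3, at 3.35 ± 0.33 or 2.89 without it. Itgam, the list's highest count, was called higher at 0.39 but not without unstimulated library a or c or E. coli library 1 or 3, at 0.31, 0.40, 0.38 and 0.30. The correction for the ceiling gave 1.22, and the gene overlaps a predicted gene of identical sequence. Lower members, and the integrins among them, numbered 5 each without E. coli library 1 or 2.

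The smaller lists are given together. Of 17 tested nucleotide-sugar, NAD and polyamine enzymes 5 were higher and 4 lower, with a median of -0.03. Hdc, which makes histamine, stood at 19.00, 15.8 and 26.8 CPM in unstimulated cells and 123, 145 and 174 CPM with E. coli. Both groups lay far apart, at 2.81 ± 0.17. Cmpk2, a mitochondrial nucleotide kinase that interferon induces, was lower at -1.25 ± 0.17, while Odc1, the first enzyme of polyamine synthesis, was higher at 0.78 and Nampt was not called (-0.03). Of 20 cell cycle genes 4 were higher, Cdkn1a among them, and 4 were lower, against 13.5% and 16.7% of all genes, with a median of -0.25. The fall of Mcm7, a helicase subunit, at -0.88, was lost without unstimulated library a (-0.69). Lower cell cycle genes numbered 1 without that library and 2 without E. coli library 1 or 3, by DESeq2 or after thinning, and lower nucleotide-sugar, NAD and polyamine genes 2 without E. coli library 2. Of 11 clock genes 2 were higher and 1, Nr1d2, was lower (-1.03), against 13.5% and 16.7% of all genes, with a median of 0.20. The rise of Per1, at 0.87, was lost without unstimulated library a or b or E. coli library 2, at 0.91, 0.75 and 0.76, which left 1 clock gene higher. Bhlhe40, the list's highest count, was not called (0.26), but was called higher after the correction for the ceiling (0.33).

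Families read from gene symbols gave further counts, to be read beside the 13.5% higher and 16.7% lower of all genes, and 7 of 16 families had 10 calls or more. Zinc finger genes were lower in 35 and higher in 8 of 216 tested members, with a median of -0.17. With 1 library left out the lower ones numbered 17, 23 and 22 (unstimulated a, b and c) and 18, 18 and 19 (E. coli 1, 2 and 3), and the higher ones 5 without E. coli library 1 or 2. DESeq2 called 15 lower and thinning left 13. Solute carriers were higher in 29 and lower in 27 of 144. Interleukin receptors were higher in 8 and lower in 3 of 22. RAB genes were higher in 5 and lower in 7 of 48, with 3 higher without unstimulated library a or E. coli library 1. Cytosolic ribosomal protein genes were higher in 4 and lower in 7 of 83. Without unstimulated library a and b and E. coli library 1 the higher ones numbered 1, 7 and 2, and the lower ones were 0 without unstimulated library b and 3 without E. coli library 1, 2 or 3. Predicted genes with Gm symbols were higher in 20 and lower in 61 of 491, and those with Rik symbols in 17 and 59 of 293, with 40 and 38 lower without unstimulated library a. With at least 10 counts in every library 8 Gm genes were higher and 24 lower, and 32 Rik genes were lower.

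Some gene neighbourhoods limit what a count can be assigned to. Exons of Cd34, Psmb8, Psmb9, Psme1, Bcl3, Nfkb2, Dusp1, Cebpb, Il1b, Il5, Fst, Il4ra, Irf7, Grn, Pla2g7, Hk3, Hif1a, Hmgcs1, Ch25h, Ndufs6, Lamp1, Npc1, Mcm7 and Bhlhe40 overlap a gene on the opposite strand. On the same strand Ifi47 overlaps Olfr56, Ifitm2 overlaps Gm45717, Hif1a overlaps Gm49321, Fpr2 overlaps Fpr3, Nr1h3 overlaps Gm13783, and Cd74 and Mcm7 overlap microRNA genes. Transcript ends with a copy of at least 95% identity belong to Ifit3, Ifitm2, Psme1, H2-K1, Mcm7, Ndufs6, Nr1d2, Odc1, Serpinb2 and mt-Co1.

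Promoters of genes that moved together are shown because their motifs can be read off the sequence. The 250 bases upstream of each start were searched on both strands in 32851 RefSeq promoters of GRCm38.p6 for GGG and TTTCC with any 2 bases between (κB), TTTC and TTTC with any 2 bases between (an interferon-stimulated response element) and TGANTCA (AP-1). The κB letters were found in 1.41% of all promoters, the interferon letters in 2.98% and the AP-1 letters in 6.75%. Among promoters of tested genes the shares were 1.57%, 3.12% and 4.61%, among those of genes called higher 2.01%, 2.75% and 6.47%, and among those of genes called lower 1.37%, 5.46% and 4.51%. Of the 19 genes with the leading rises or gains 15 had a promoter in the table, 3 of these with the κB letters, 1 with the interferon letters and 1 with the AP-1 letters. The promoters below were picked because they hold a match, so they do not stand for the genes that rose or fell at large. A match is a description of the sequence, and no use of the site was measured. Capitals mark the matches of all 3 sets of letters. The plus-strand sequences below are those of Cxcl2 (chr5:90903649-90903898), Cxcl3 (chr5:90785851-90786100) and Il6 (chr5:30012864-30013113), which rose, and of Ifit3 (chr19:34583279-34583528), which fell at -1.15. The sequence of Ifit1bl1 (chr19:34601969-34602218), which fell too, is on the minus strand.
Cxcl2: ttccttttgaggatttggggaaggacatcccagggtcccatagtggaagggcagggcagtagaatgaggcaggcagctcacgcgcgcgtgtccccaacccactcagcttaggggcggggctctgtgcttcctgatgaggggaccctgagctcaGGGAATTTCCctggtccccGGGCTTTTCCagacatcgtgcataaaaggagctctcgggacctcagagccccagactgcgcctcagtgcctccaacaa
Cxcl3: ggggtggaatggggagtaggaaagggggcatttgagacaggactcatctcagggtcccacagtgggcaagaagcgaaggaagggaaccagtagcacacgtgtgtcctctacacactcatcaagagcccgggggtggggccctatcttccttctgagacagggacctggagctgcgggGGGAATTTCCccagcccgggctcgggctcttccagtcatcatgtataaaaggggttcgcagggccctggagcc
Il6: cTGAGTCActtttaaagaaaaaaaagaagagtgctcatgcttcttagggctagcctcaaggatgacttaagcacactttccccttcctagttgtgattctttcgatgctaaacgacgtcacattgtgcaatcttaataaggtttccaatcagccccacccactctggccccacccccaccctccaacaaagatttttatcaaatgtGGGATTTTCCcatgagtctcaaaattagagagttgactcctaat
Ifit3: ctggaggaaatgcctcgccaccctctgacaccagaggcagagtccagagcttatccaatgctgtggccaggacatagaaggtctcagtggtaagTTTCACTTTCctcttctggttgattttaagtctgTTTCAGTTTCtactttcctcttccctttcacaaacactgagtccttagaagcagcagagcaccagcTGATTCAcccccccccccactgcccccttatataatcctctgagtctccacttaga
Ifit1bl1: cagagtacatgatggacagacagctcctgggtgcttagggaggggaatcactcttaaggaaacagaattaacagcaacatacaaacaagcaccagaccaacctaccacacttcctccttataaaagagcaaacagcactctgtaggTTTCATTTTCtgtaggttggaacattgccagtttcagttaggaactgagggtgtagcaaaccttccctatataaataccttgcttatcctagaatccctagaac

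Set directly against IFN-γ in the same fit, E. coli gave higher levels of some genes and lower levels of others. IFN-γ induces the GTPase and class II genes above, and all tested members of both were lower with E. coli than with IFN-γ. Both are known for that induction, and the IFN-γ libraries counted in the filter. This outcome therefore follows largely from the choice of genes and is no test of a difference. Of 9883 genes 2525 were called (25.5%), 1132 higher with E. coli (11.5%) and 1393 lower (14.1%). Values for IFN-γ are in the order of libraries 1, 2 and 3. Ccn3, a matricellular growth regulator, stood at 87.7, 84.6 and 85.4 CPM with E. coli and 2.24, 1.54 and 1.31 CPM with IFN-γ, a log2 difference of 5.60 ± 0.27 (adjusted p = 1.74e-11). Csf3 stood at 44.1, 52.5 and 114 CPM and 2.80, 0.513 and 1.96 CPM. In both genes every E. coli library was above every IFN-γ library, which the choice of these genes required. Il19 and Spint1 had 2 counts and 1 count in all in the IFN-γ libraries, and their ratios were 157 with an interval of 43.3 to 1303 and 90.98 with 16.04 to 3621. The log2 difference of Il19, 7.13, was 9.97 and 6.53 without IFN-γ library 1 and 2, and that of Spint1, 6.10, was 8.16 without IFN-γ library 3. U90926 and Lama5 were the other leading rises over IFN-γ, with log2 differences of 5.98 and 4.90.

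In the opposite direction Cxcl9, a chemokine that IFN-γ induces, stood at 6.12, 1.67 and 3.46 CPM with E. coli and 339, 339 and 358 CPM with IFN-γ, a log2 difference of -6.55 ± 0.29. Gbp8, a guanylate-binding protein, stood at 4.08, 7.02 and 2.47 CPM and 261, 354 and 301 CPM, and Lair1, an inhibitory collagen receptor, at 8.16, 5.02 and 5.43 CPM and 229, 257 and 226 CPM. Every E. coli library was far below every IFN-γ library in these genes, and their choice required groups that do not overlap. Serpina3g, a protease inhibitor, had 0.816, 0.669 and 0 CPM and 20.1, 13.8 and 13.1 CPM, with near-identical copies and 4 E. coli counts in all. Focad, a protein of focal adhesions, had 1.22, 0.334 and 0 CPM and 24.6, 15.9 and 16.3 CPM and exons that overlap an antisense gene. Its log2 difference of -4.99 was -6.18 without E. coli library 1. Gbp2b, with no E. coli count, was at least 26.00-fold lower against the floor of 3 counts. Gbp8 overlaps Gbp4 and Gbp9 on the same strand. Of the gene lists, 31 of 53 interferon-stimulated genes, 17 of 17 inducible GTPases and 29 of 36 antigen presentation genes were lower with E. coli than with IFN-γ. Their medians were -0.61, -2.33 and -1.40 against 0.02 over all genes. The GTPases were listed because IFN-γ induces them, and the IFN-γ libraries counted in the filter. Their count of 17 of 17 was thus close to fixed by this choice. HIF targets were lower in 19 of 19 and glycolysis genes in 20 of 22, with medians of -1.37 and -0.94, although most members of both lists rose over unstimulated cells. Cytokines were higher in 18 and lower in 9 of 34, and chemokines higher in 8 and lower in 7 of 24, or lower in 12 without E. coli library 3 and in 11 with no filter on low counts. With at least 10 counts required in every library 11 cytokines were higher and 4 lower. Trem1, Il13 and Pim2 were higher with E. coli than with IFN-γ (3.13, 3.72 and 3.91). Cxcl3, Thbs1 and Cdkn1a were not called between these groups (0.21, -0.34 and 0.18). Thbs1 was, however, called lower without E. coli library 3 (-0.47) and with the replicate number as a block (-0.33). Cxcl3 was called higher (0.62) after the correction for the ceiling. These last comparisons were chosen after their values were seen.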

How the data were processed

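The authors deposited counts per gene and library. Their processing notes name fastp 0.20.1, TopHat2 2.1.0, STAR 2.7.2a and HTSeq 0.6.1 with GRCm38, without saying which aligner made which file, whether molecular identifiers were collapsed or whether counting used strand. Summary lines that name no gene were dropped. Reads without a gene made up 25.1% to 37.6% of each unstimulated and 28.6% to 32.8% of each E. coli library, and ambiguous reads 1.84% to 2.27%. Of 55029 gene identifiers 98.3% had a symbol in GENCODE M21.

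Counts of 12 libraries (unstimulated a to c, E. coli, IFN-γ, and IFN-γ with E. coli) entered 1 model in edgeR 4.0.16 (R 4.3.3, with limma 3.58.1). Genes passed filterByExpr and libraries were scaled by TMM. Calls are from the quasi-likelihood test, adjusted over all genes tested, at 0.05. Standard errors come from the F statistic and are approximate. The steps were tested on simulated data with the same spread for all genes, no ceiling and no deviant library. That test does not bear on these features of the data. No pair of libraries in a group differed by as little as sampling noise.

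Named genes are the 12 largest rises and 12 largest falls among called genes whose groups do not overlap. Their higher group has a mean of at least 10 CPM (predicted genes counted, not named). The 6 largest differences from IFN-γ each way were chosen by the same criteria. Also named are the 8 largest gains and 8 largest losses of mean CPM. From each of 26 gene lists come the largest called rise and fall, the most abundant member and members that define the list, the last picked with results known. Other genes were named after their values were seen. The members and lists were chosen with earlier results of these data known. A fold against a group at 0 used a floor of 3 counts over the group, and intervals (exact, 95%) and floors cover counting error only. Overlapping genes and transcript ends with at least 95% identity come from GENCODE M21 and promoters from RefSeq. Alternatives were DESeq2 1.42.0 (its size factors, its test), no filter, at least 10 counts in every library, a factor of 2, only the 6 libraries compared, thinning to the smallest library, a correction for identifier collisions and leaving out each library.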

Additional observations from a re-analysis of the deposited data

Results flagged for a closer look

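Reads that matched several genes, which enter no gene count, took a larger share in each E. coli library than in any unstimulated library. The share was 2.27%, 2.24% and 2.16% of all counted reads in E. coli libraries 1, 2 and 3, against 1.84%, 2.07% and 2.00% in unstimulated libraries a, b and c. The genes behind these reads are not given in the files, and the difference was not tested.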

How the results depend on the processing

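With a change of at least a factor of 2 required as well, 350 genes were higher and 673 lower with E. coli, and 392 higher and 635 lower than with IFN-γ, since this rule calls fewer genes. Under the other alternatives these 4 counts stayed within 1.5 times those of the report. With each library left out in turn, genes higher with E. coli numbered 945 to 1336 and genes lower 1215 to 1512. DESeq2 called 1182 higher and 1299 lower. No named value that was called took the opposite sign in a refit, while Pla2g7, not called at -0.12, was called higher after the correction for the ceiling. Of 161 named values that were called 143 were called in each refit that tested them, and 18 were not in some refit. The cause was not tested. Many of these genes were named for large changes, so the tally does not stand for all genes called. This tally leaves out the rule with a factor of 2, under which 50 of the 161 were not called. Thinning ended the calls of Ccl8 (-1.29), Ggt5 (-0.70), Ndufs6 (-0.53), Mcm7 (-0.67), Per1 (0.90), Psme1 (-0.28) and Rel (0.52), the fit of 6 libraries those of Cybb, Psme1 and Rel, no filter that of Psme1, and DESeq2 and at least 10 counts that of Rel. With at least 10 counts in every library, which tests fewer genes, called members went from 25 to 16 and from 5 to 3 for cytokines higher and lower, from 5 to 2 for chemoattractant receptors lower, from 5 to 2 for MHC genes higher, from 7 to 3 for B cell and from 5 to 3 for macrophage markers lower, and from 2 to 1 for clock genes higher. Lower members grew from 2 to 6 for the respiratory chain, from 0 to 2 for endoplasmic reticulum chaperones and from 0 to 1 for granule genes, and the cause was not tested. That filter also left 2 co-stimulation genes higher, 5 integrins lower and 19 zinc finger genes lower. With no filter the lower members numbered 3 for survival and 2 for pro-apoptotic genes, 1 for amino acid response, 2 for nucleotide-sugar, NAD and polyamine enzymes and 23 for zinc finger genes. The fit of 6 libraries gave 2 glycolysis and 4 cytosolic ribosomal protein genes lower, DESeq2 1 respiratory chain gene lower and 5 zinc finger genes higher, thinning 1 clock gene higher and the correction for the ceiling 1 granule gene lower. No paired analysis was possible from the sample titles for E. coli against unstimulated cells because these give letters to the unstimulated and numbers to the E. coli libraries. The file names number both 1 to 3. By these numbers the deviations of E. coli and unstimulated libraries correlated at -0.0766, -0.0975 and 0.0139, so they were not taken as pairs, and no E. coli library correlated best with its own number. A replicate block by these numbers, added after seeing the data, gave 1331 higher and 1608 lower. E. coli and IFN-γ libraries share numbers, but the correlation of their deviations was -0.0022, 0.173 and -0.0163 for numbers 1, 2 and 3, and only E. coli library 2 correlated best with its own number. With the number as a block in the 9 stimulated libraries 1216 genes were higher and 1534 lower than with IFN-γ, against 1104 and 1371 without the block, a fit chosen after seeing the data, and the block called Thbs1 lower (-0.33). Depth limits genes of few counts, and the ceiling those of many.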
